A study of Rattus norvegicus with 6 samples.

Results

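Multi-exon circular RNAs whose flanking introns are both short were followed in the white matter of rats with modelled cerebral palsy and of healthy control rats. Members were taken from the authors' table of back-splice junctions by 4 conditions: an entry classed as exonic, 2 to 9 exons, at least 1 junction read over the 6 libraries, and flanking intron intervals that were both under 3000 bp (end minus start). The rule used annotation and detection and no comparison between groups. It left 901 circRNAs from 713 host genes, which is 10.4% of the 8635 circRNAs with a read and 14.4% of the 6237 multi-exon circRNAs with both intervals listed. Another 8 multi-exon circRNAs lacked an interval and were left out. The class held 2577 of 35272 junction reads, or 7.31%.

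The study asked which circular RNAs differ between model and normal white matter, with 3 libraries in each group. The tested animals are labelled as rats with cerebral palsy and the others as healthy controls. The sources used here do not say how the model was made, nor the strain, age or sex of any animal. Before sequencing, linear transcripts were digested with the exonuclease RNase R, so junction reads stand for circles in RNA enriched for them.

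A circular RNA arises by back-splicing, in which the spliceosome joins a downstream splice donor to an upstream acceptor. The introns on either side must be brought close together, by pairing of inverted repeats or by RNA-binding proteins such as QKI that contact both introns. Circularised exons in animals are typically flanked by long introns, which is why a class with short introns on both sides is of interest. In brain, circular RNAs are abundant and stable, and many come from genes of neuronal and synaptic function.

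The upstream intron of the 901 circRNAs had a median length of 1432 bp (quartiles 836 and 2106, range 44 to 2989 bp). The downstream intron had a median of 1508 bp (quartiles 832 and 2254, range 54 to 2996 bp). The lengths of the 2 introns were weakly related within the class (Spearman rho 0.22 over 901 circRNAs) and more closely over all 6237 multi-exon circRNAs (rho 0.51), which cover a wider range of lengths. Both values describe circRNAs that share libraries and often a host gene.

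**Figure D1:**
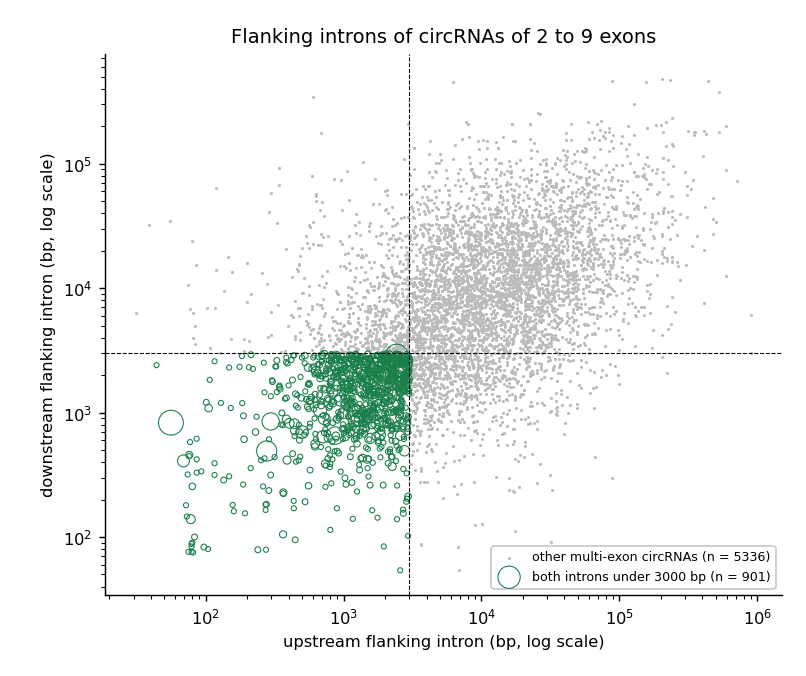
Length of the upstream intron (x axis, bp, log scale) against the downstream intron (y axis, bp, log scale) of multi-exon circRNAs, 1 point per circRNA. The 901 with both introns under 3000 bp are green, with size growing with reads, the 5336 others are grey, and the dashed lines mark 3000 bp.

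A few introns were close to the smallest that are spliced. In 29 circRNAs the shorter intron was under 100 bp, and these held 157 reads, 71 in model rats and 86 in controls. Most of those reads, 97, came from a single circRNA of Hnrnph1, described further on. In 7 circRNAs both introns were under 100 bp. They came from Xrn1 (an exonuclease for uncapped RNA), Ppp6r1 (a regulatory subunit of protein phosphatase 6), Adck5, Kifc2 (a kinesin), Nelfcd (a subunit of the negative elongation factor), Prpf8 (the core spliceosome protein) and Edc4 (an mRNA decapping scaffold). The Xrn1 circRNA2370 had introns of 97 and 83 bp (chromosome 8, 96542338 to 96546890, mRatBN7.2) and 2 reads, both in control 1. The other 6 rested on 1 read each, so these 7 had 8 reads in all, 5 in model rats and 3 in controls.

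The circles were compact on the genome. Their span, from first to last exon, had a median of 4471 bp (quartiles 1623 and 9936), against 16040 bp for the 3809 multi-exon circRNAs with both introns of 3000 bp or longer, here called the long-intron class. It was 8384 bp for the 1527 with 1 short intron. The number of exons had a median of 4 in all 3 classes, and span per exon had a median of 1167 bp against 3629 bp in the long-intron class. Spans under 1 kb made up 15.6% of the short-intron class and 1.68% of the long-intron class. The 2-exon form was the commonest, with 243 circRNAs (27%, against 19.8% in the long-intron class), 780 reads and a median span of 1077 bp. At the other end stood 39 circRNAs of 9 exons with 69 reads and a median span of 16581 bp. The shortest circle spanned 273 bp (Taok2 circRNA6552, 2 exons, 1 read) and the longest 166490 bp (Wdpcp circRNA713, 9 exons, 1 read).

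Abundance was low. A single read supported 530 circRNAs (58.8%), against 43.3% in the long-intron class and 55.0% in the class with 1 short intron. At least 10 reads were seen for 38 (4.22%), against 9.79% in the long-intron class and 4.45% in the class with 1 short intron, which was nearly the same. A read in every library was seen for 15 (1.66%), against 4.25% in the long-intron class and 1.38% in the class with 1 short intron. In 1 library alone, 705 (78.2%) were seen. The same held for 2350 of the 3809 in the long-intron class and 1129 of the 1527 with 1 short intron. Over all multi-exon circRNAs ordered by their longer intron, reads per circRNA were 2.86 under 3000 bp, 2.68 from 3000 to 6000 bp, 3.33 from 6000 to 12000 bp, 5.11 from 12000 to 24000 bp and 6.40 above that. The short-intron class was thus not at the bottom of this series, and the next bin was slightly lower. Within the class, the longer intron had almost no relation to reads (rho -0.07 over 901 circRNAs).

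Reads per detected circRNA were 1.96, 1.95 and 1.83 in model rats 1 to 3, and 2.08, 2.22 and 2.00 in controls 1 to 3. In the long-intron class they were 2.88, 2.86 and 2.96 in model rats and 2.96, 3.08 and 3.07 in controls. All 6 values of the short-intron class lay below all 6 of the long-intron class. The class with 1 short intron stood at 1.97 to 2.09 in model rats and 2.03 to 2.06 in controls. In controls the short-intron values overlapped with it. In model rats all 3 lay below it, narrowly at 1.96 against 1.97. Single-exon circRNAs stood higher than these multi-exon classes, at 4.09 to 5.11. Reads per detected circRNA grow with depth, and every control library was deeper than every model library, so the order of the groups within a class cannot be told apart from depth.

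**Figure D2:**
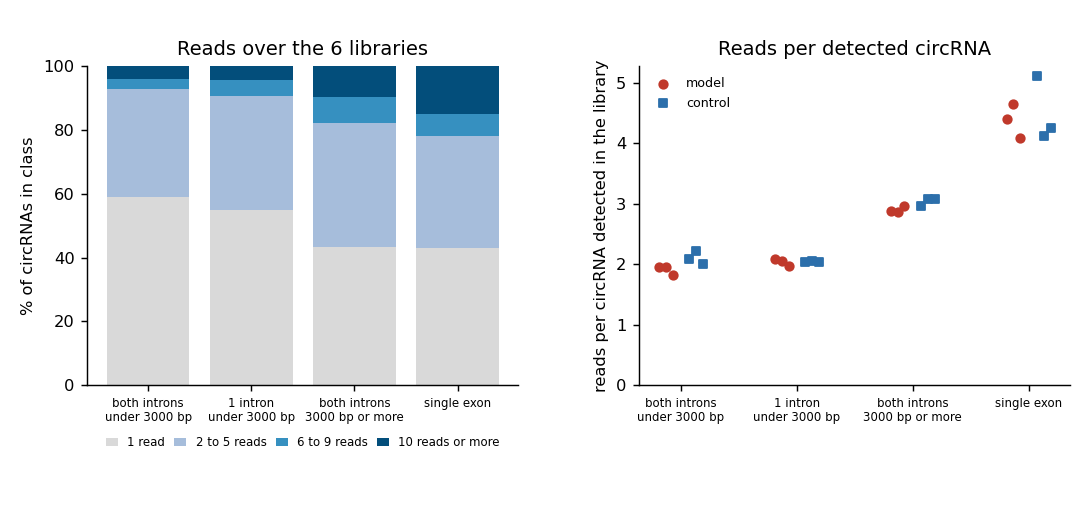
Left, share of circRNAs (y axis, %) with 1, 2 to 5, 6 to 9 and 10 or more reads over the 6 libraries, for both introns short, 1 short, both long and single-exon circRNAs (x axis). Right, reads per detected circRNA in each library (model red circles, control blue squares), with the short-intron class at 1.83 to 2.22 and the long-intron class at 2.86 to 3.08.

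Short-intron circRNAs were the sole detected circle of their gene in 285 cases (31.6%), against 16.4% of the long-intron class. The share was 23.9% in the class with 1 short intron and 32.2% among single-exon circRNAs, close to the short-intron value. A start or end shared with another detected circRNA, which marks alternative use of a splice site, was found for 234 (26.0%), against 61.6% in the long-intron class, 46.1% with 1 short intron and 34.0% of single-exon circRNAs. Of the 713 hosts, 582 gave 1 short-intron circRNA, 94 gave 2 and 37 gave 3 or more. Over all these hosts, the class held 35.0% of the hosts' junction reads, whereas the long-intron class held 76.0% of the reads of its own hosts, the class with 1 short intron 29.96% and single-exon circRNAs 46.4%. Reads were not matched between the classes for these shares.

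The functions of host genes were described by annotation, with no test made because a gene can host both classes. In the gene ontology columns of the authors' deposited table, RNA binding was given for 58 of 703 annotated hosts (8.25%), against 3.20% of long-intron hosts and 5.36% of all hosts. Nucleolus stood at 6.26% against 2.87%, nucleoplasm at 18.6% against 13.04%, mitochondrion at 8.96% against 4.48%, and ATP binding at 13.1% against 9.28% of long-intron hosts. Over all hosts these 4 stood at 3.92%, 14.8%, 6.22% and 10.3%. Other terms were close in the 2 classes, such as DNA binding (6.54% against 5.97%), centrosome (3.84% against 3.54%) and protein kinase activity (3.41% against 3.37%). The share was lower than in long-intron hosts for plasma membrane (13.7% against 18.2%), synapse (1.85% against 4.2%), dendrite (1.56% against 3.09%) and calcium ion binding (2.13% against 3.48%). The last 3 rested on 13, 11 and 15 short-intron hosts, and over all hosts they stood at 3.67%, 2.64% and 2.89%.

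The class was also counted in lists of genes by function. Over all circRNAs with a read its share was 10.4%. Of the 151 circRNAs from RNA-binding and splicing genes, 27 (17.9%) were short-intron circRNAs, led by Hnrnph1, Rbm27 and Xrn1. Of the 322 from ubiquitin-system genes, 52 (16.1%) were, led by Trip12, Herc1 and Usp9x. Chromatin and transcription regulators gave 38 (11.4%), led by Hdac2, Kdm1a and Atrx. Membrane trafficking and autophagy genes gave 33 (10.03%), led by Htt. Both shares were near that over all circRNAs. In 2 small lists the shares were 6 of 28 circRNAs (21.4%) from circRNA biogenesis factors and 7 of 42 (16.7%) from myelin lipid and cholesterol synthesis genes. The shares were low in 2 other lists, where 11 of 419 circRNAs of synapse and excitability genes (2.63%) and 5 of 133 of myelinating oligodendrocyte genes (3.76%) belonged to the class. Between these stood hypoxia and inflammation genes (11.1%, near the share over all circRNAs) and cytoskeleton and cilium genes (7.45%). Small GTPase regulators (5.46%) and kinases and phosphatases (5.34%) also lay there. The astrocyte list had 43 circRNAs and no short-intron one.

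Between groups, junction reads of these lists were few. RNA-binding and splicing genes had 53 reads in model rats and 87 in controls, of which Hnrnph1 circRNA273 gave 42 in model rats and 55 in controls. Ubiquitin-system genes had 44 reads in model rats and 75 in controls, or 0.271 ± 0.0290% of junction reads in model rats and 0.395 ± 0.0857% in controls (SD, n = 3). Trip12 circRNA2237 gave 2 of these reads in model rats and 15 in controls. Chromatin regulators had 64 in model rats and 79 in controls, of which Hdac2 circRNA910 gave 30 in model rats and 48 in controls. Trafficking genes had 27 in model rats and 38 in controls. Cytoskeleton and cilium genes (19 circRNAs) had 24 in model rats and 36 in controls, and small GTPase regulators (20 circRNAs) had 19 in model rats and 35 in controls. These 6 lists had fewer reads in model rats, as did the libraries as a whole. Synapse genes had 34 reads in model rats and 25 in controls, of which Magi3 circRNA3513 gave 23 in model rats and 16 in controls. Kinases and phosphatases (15 circRNAs) had 8 in model rats and 13 in controls. Oligodendrocyte genes had 8 in model rats and 8 in controls. The remaining 3 lists had at most 5 reads in a group: myelin lipid genes (7 circRNAs) 5 in model rats and 3 in controls, circRNA biogenesis factors (6 circRNAs) 5 in model rats and 3 in controls, and hypoxia and inflammation genes (3 circRNAs) 3 in model rats and 0 in controls. With a filter of 6 reads over all libraries, no short-intron circRNA of any list passed edgeR's adjusted threshold in either direction. Over all circRNAs tested, 0.194% passed as lower and 0% as higher. Few were tested: 4 of ubiquitin-system genes, 3 of cytoskeleton and cilium genes, and 1 or 2 of each other list that had any. For circRNA biogenesis, kinase and phosphatase, astrocyte, myelin lipid, and hypoxia genes 0 were tested, so no call was possible.

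The libraries themselves were shallow and differed in depth by group. Junction reads numbered 4750 to 5821 in model rats and 5926 to 6793 in controls, without overlap, so a count of 0 in 1 library allows 0.0442% to 0.0632% of its reads. These limits cover counting error alone, since PCR copies cannot be told from separate molecules here. Y-chromosome junctions had 0 reads in each model library and 2, 9 and 2 in controls. Sex is not in the labels, and its part in any difference was not tested. The white matter label was set against marker genes through their circular output alone. Astrocyte markers had a read for 2 of 6 (Gfap and Slc1a2, 4 to 12 in model rats and 7 to 15 in controls), neuronal markers for 3 of 8 (0 to 8 in model rats and 1 to 6 in controls), and microglial markers for 0 of 5. Endothelial and pericyte markers had a read for 1 of 5 (Flt1, 0 to 2 in model rats and 1 to 5 in controls). Ependyma and choroid plexus markers had 1 of 3, Dnah9, with 9, 2 and 0 reads in model rats and 0, 1 and 3 in controls. Oligodendrocyte precursor markers had 1 of 4, with 1 read in control 3. None of these markers hosts a short-intron circRNA, and circular output does not measure a gene's mRNA.

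Short-intron circRNAs had 408, 312 and 400 reads in model rats 1 to 3, and 472, 556 and 429 in controls 1 to 3. Every model library held fewer than every control library, as was also the case for all junction reads. As a share of junction reads they made up 7.01%, 6.57% and 7.02% in model rats, and 6.95%, 8.85% and 7.24% in controls. The groups overlapped on this scale, with means of 6.87 ± 0.258% in model rats and 7.68 ± 1.02% in controls (SD, n = 3 each). Control 2 stood above the other 5 libraries: the difference between means was -0.81 percentage points with it and -0.23 without it. As a share of multi-exon reads the class held 8.82 ± 0.234% in model rats and 9.48 ± 1.19% in controls, and without control 2 the difference turned from -0.66 to 0.02 percentage points.

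The number of distinct short-intron circRNAs was 208, 160 and 219 in model rats and 227, 250 and 214 in controls. With each library thinned to 4750 reads it was 182, 160 and 197 in model rats and 183, 211 and 187 in controls. The groups overlapped before and after thinning, with means of 179.8 ± 18.7 in model rats and 193.6 ± 15.2 in controls at equal depth (SD, n = 3 each). On the authors' normalised scale, SRPBM, summed signal was 9809, 7759 and 9003 in model rats and 10691, 12822 and 10708 in controls. The groups did not overlap there, and neither did the sums over all circRNAs, at 118122 to 139941 in model rats and 144934 to 153861 in controls. In bulk tissue, fewer cells of a type and less circular RNA per cell cannot be told apart.

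**Figure D3:**
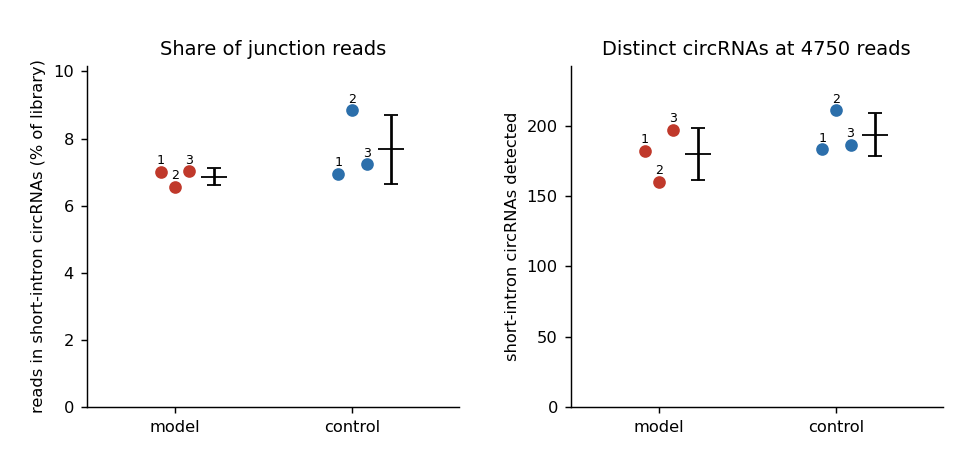
Share of junction reads in short-intron circRNAs (left, %) and number of distinct short-intron circRNAs at 4750 reads per library (right) in each library, with mean and SD bars (n = 3 per group, model left of control). Control 2 is the highest point in both panels, at 8.85% and 211, and the groups overlap.

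The 12 most abundant members held 660 reads, 25.6% of the class, with 267 in model rats and 393 in controls. In 11 of them the circRNA carried at least 90% of its host's junction reads, and 4 were the sole circle of the gene. Each circRNA is counted at 1 junction, so these counts do not scale with its length. Levels are given as reads per 1000 junction reads of the library.

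The most abundant came from Yme1l1, which encodes a protease of the mitochondrial inner membrane that processes the fusion protein OPA1. This 6-exon circle (circRNA493, chromosome 17, 85293740 to 85307890, plus strand) lay between introns of 2102 and 2104 bp. It had 21, 11 and 22 reads in model rats 1 to 3, and 35, 43 and 29 in controls 1 to 3. Every model library was below every control library, also as a level: 3.26 ± 0.829 reads per 1000 in model rats and 5.63 ± 1.06 in controls (SD, n = 3 each). The log2 fold was -0.77 ± 0.38 (SE), with an edgeR adjusted p of 0.623 and an unadjusted p of 0.0519. With 1 library left out it ranged from -0.90 to -0.51.

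Hnrnph1 encodes an RNA-binding protein that regulates splicing, and its sole detected circle had the shortest flanking intron among the abundant members. This 2-exon circRNA273 spanned 385 bp (chromosome 10, 34698949 to 34699333, plus strand) between introns of 56 and 829 bp. It had 14, 12 and 16 reads in model rats and 22, 13 and 20 in controls. The groups overlapped, with a log2 fold of -0.16 ± 0.44 (SE, edgeR adjusted p = 0.964). Near-identical relatives of this gene exist in the genome, and how reads were split between them is not given.

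The histone deacetylase gene Hdac2 gave a 3-exon circle (circRNA910, chromosome 20, 40562513 to 40564047) between introns of 2426 and 2875 bp. Its reads were 10, 4 and 16 in model rats and 9, 21 and 18 in controls. Model rat 2 and control 1 were the lowest of their groups, which overlapped (log2 fold -0.49 ± 0.53, SE, edgeR adjusted p = 0.964). Hars2, for the mitochondrial histidyl-tRNA synthetase, gave a 3-exon circle of 778 bp (circRNA813, chromosome 18, 28403423 to 28404200) between introns of 277 and 491 bp. Its reads were 8, 15 and 4 in model rats and 12, 9 and 12 in controls, with a log2 fold of -0.03 ± 0.63 (SE, edgeR adjusted p = 0.989). The model rats spread on both sides of the controls, and the sign of the fold turned under other scalings. The gene has a paralog, Hars1, and whether reads could be assigned to either was not tested.

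Pigo, for an enzyme of glycosylphosphatidylinositol anchor synthesis, gave a 2-exon circle of 424 bp (circRNA1306, chromosome 5). It had 7, 6 and 8 reads in model rats and 9, 9 and 4 in controls, which overlapped. Eprs, for the glutamyl-prolyl-tRNA synthetase, gave circRNA85 (5 exons, chromosome 13) with 5, 3 and 5 reads in model rats and 3, 1 and 7 in controls. Ddhd2, for a lipase that hydrolyses triglycerides in brain, gave circRNA551 (4 exons, chromosome 16) with 9, 3 and 1 reads in model rats and 5, 8 and 2 in controls. None of these 3 differed beyond the spread between libraries: the log2 folds were 0.03 ± 0.74 for Pigo, 0.31 ± 0.97 for Eprs and -0.11 ± 0.92 for Ddhd2 (SE), each with an edgeR adjusted p of 0.980, and each changed sign under at least 1 alternative.

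Some abundant members were missing from whole libraries. Brsk2, for a kinase of neuronal polarity, gave circRNA3630 (5 exons, chromosome 1, introns of 296 and 848 bp) with 6, 15 and 0 reads in model rats and 0, 21 and 0 in controls. Magi3, for a membrane scaffold protein, gave circRNA3513 (2 exons, chromosome 2) with 16, 7 and 0 reads in model rats and 0, 11 and 5 in controls. Atl2, for a GTPase that shapes the endoplasmic reticulum, gave circRNA1147 (6 exons, chromosome 6) with 5, 0 and 3 reads in model rats and 15, 11 and 4 in controls. The zero and the high libraries fell in both groups for Brsk2 and Magi3, and the Brsk2 fold ranged from -1.07 to 5.97 with 1 library left out. The 5.97 was without control 2, so it was set against controls with no Brsk2 read. For Atl2 the groups overlapped at 5 reads in model rat 1 and 4 in control 3, and the log2 fold was -1.77 ± 0.84 (SE, edgeR adjusted p = 0.690, unadjusted p = 0.0356). Of the 38 members with at least 10 reads, 23 (60.5%) had 0 reads in at least 1 library, close to the 211 of 373 (56.6%) in the long-intron class.

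Tmem41b, for a lipid scramblase of the endoplasmic reticulum needed for autophagosome formation, gave circRNA2027 (4 exons, chromosome 1). Its reads were 4, 3 and 1 in model rats and 8, 7 and 4 in controls. Swt1, related to a yeast RNA endonuclease of messenger quality control, gave circRNA41 (5 exons, chromosome 13) with 5, 1 and 1 reads in model rats and 4, 8 and 4 in controls. The groups met at 4 reads for Tmem41b and overlapped for Swt1, with log2 folds of -1.11 ± 0.96 and -1.07 ± 1.02 (SE, edgeR adjusted p = 0.980 for both).

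**Figure D4:**
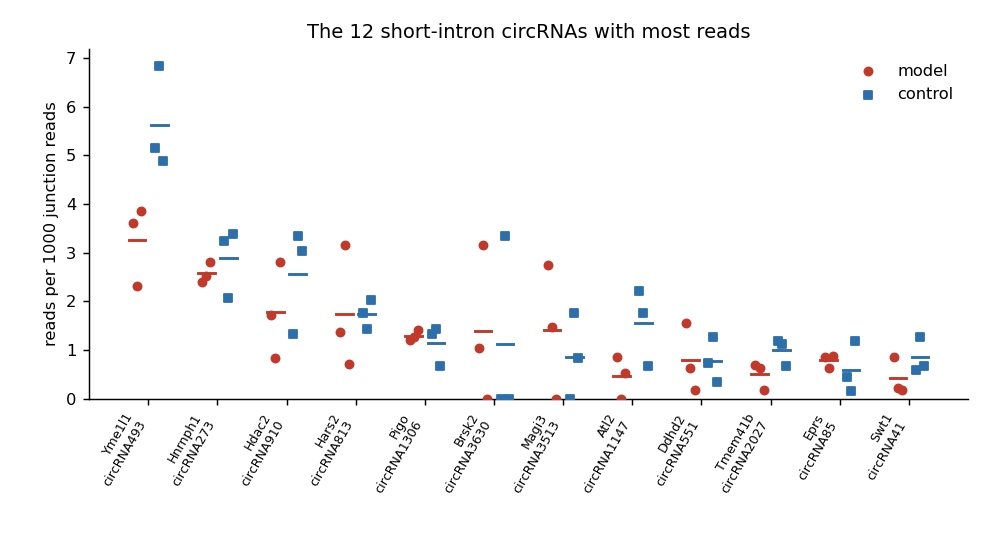
Reads per 1000 junction reads (y axis) of the 12 most abundant short-intron circRNAs in each library, model (red circles, left) and control (blue squares, right) for each gene, with bars at the group means. For Yme1l1 all 3 model libraries lie below all 3 controls, and for Brsk2 and Magi3 libraries at 0 occur in both groups.

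At the default filter on low counts, edgeR tested 60 circRNAs, and 4 of them were short-intron ones: Yme1l1, Hnrnph1, Hdac2 and Hars2. None of the 4 passed an adjusted p of 0.05, where 3.33% of the circRNAs tested were called lower and 0% higher, and none had an unadjusted p under 0.05 (6.67% of those tested were lower at that level, 0% higher). DESeq2 and limma voom called none of the 4 either; voom gave 1 an unadjusted p under 0.05 and DESeq2 gave none. The median log2 fold of the 4 was -0.33, and it was 0.00 over the 60.

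With a filter of 6 reads over all libraries, 65 members were tested among 1029 circRNAs. Again none passed the adjusted threshold, which 0.194% of all circRNAs passed as lower and 0% as higher. At an unadjusted p under 0.05, 6 of the 65 members (9.23%) were lower and 0 higher, against a background of 3.11% lower and 1.94% higher. The 6 were from Atl2, Yme1l1, Htt, Rnf214, Ahctf1 and Trip12, and each had an edgeR adjusted p of 0.690. Htt, Rnf214 and Ahctf1 had no model read and passed the filter through control reads alone, so they could only be lower. The count of 6 is thus not set against the background as a result. At the same filter limma voom gave 4 members an unadjusted p under 0.05, all lower, and DESeq2 gave 0; neither called any after adjustment. With a filter of 10 reads, 38 members were tested among 561 circRNAs, and 0 passed the adjusted threshold in either direction, as did 0% of all. At an unadjusted p under 0.05 in edgeR, 1 member was lower and 0 higher, where 3.39% of the circRNAs tested were lower and 2.32% higher; 1 of 38 is 2.63%, below that background. Of the 65 log2 folds 40 were negative and 25 positive, with a median of -0.35 against -0.06 over all 1029. Without control 2 the median was -0.06 over the 53 members then tested, against 0.06 over all circRNAs tested. Leaving that library out also changed which members reached 6 reads. With DESeq2's size factors the median over all circRNAs moved to 0.11 and that of the members to -0.21. These folds were fitted on members that passed through their reads in either group, and the members that did not reach 6 reads, 836 of 901, were not tested.

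**Figure D5:**
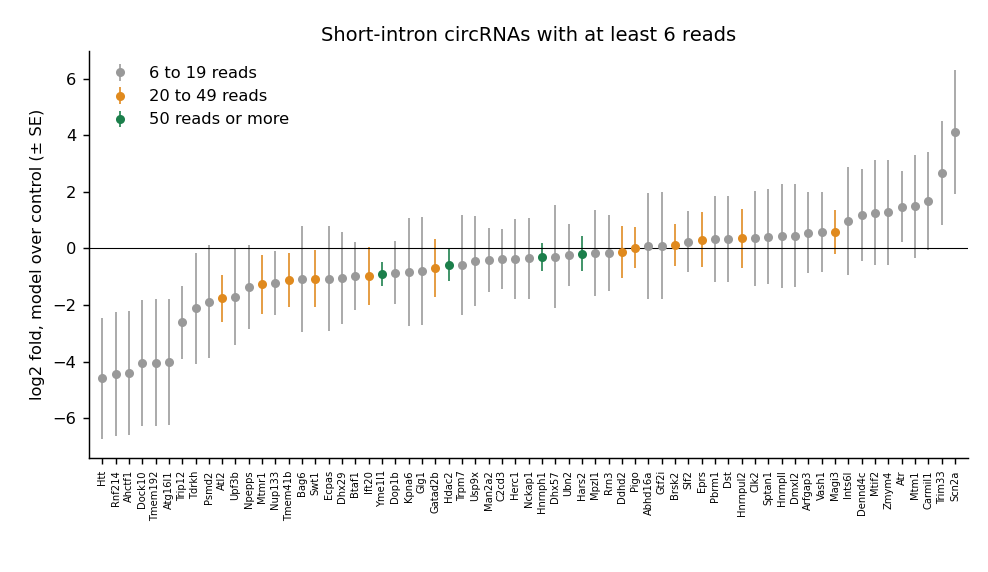
Log2 fold of model over control (y axis, bars are SE) for the 65 short-intron circRNAs with at least 6 reads. Each circRNA has 1 position on the x axis, in order of fold, and is coloured by total reads. Folds of 40 are below 0 and of 25 above 0, and the widest bars belong to circRNAs with no read in 1 group.

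Members with no read in 1 group stood at the ends of this order. Htt, for huntingtin, a scaffold for vesicle transport, gave circRNA2834 (7 exons, chromosome 14) with 0, 0 and 0 reads in model rats and 0, 6 and 3 in controls. Rnf214, a RING finger gene, gave circRNA2306 (2 exons, chromosome 8) with 0 in each model library and 2, 1 and 5 in controls. Ahctf1, for the nucleoporin ELYS, gave circRNA2476 (5 exons, chromosome 13) with 0 in each model library and all 8 of its reads in control 2. Only Rnf214 of these 3 had a read in every control. These members passed the 6-read filter through their control reads, and no fold is given for them. Dock10 (circRNA3705, chromosome 9) and Tmem192 (a lysosomal membrane protein; circRNA528, chromosome 16) had no model read. Their control reads were 0, 2 and 4 for Dock10 and 2, 3 and 1 for Tmem192, at the limit of the filter.

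At the upper end, Scn2a, for a voltage-gated sodium channel of neurons, gave circRNA5622 (2 exons, chromosome 3, introns of 385 and 886 bp). It had 3, 1 and 2 reads in model rats and 0 in each control, and passed the filter through its model reads. Trim33, for a ubiquitin ligase of SMAD signalling, gave circRNA1861 with 3, 0 and 5 reads in model rats and 1, 0 and 0 in controls. Carmil1, for a regulator of actin capping protein, gave circRNA4007 with 5, 0 and 2 in model rats and 0, 0 and 2 in controls. Only Scn2a of these had a read in every model library. Mtm1, for a phosphoinositide phosphatase, gave circRNA1123 with 6, 0 and 0 in model rats and 2, 0 and 0 in controls. The edgeR adjusted p was 0.690 for Scn2a and 0.980 for Trim33, Carmil1 and Mtm1. Of all 901 members, 336 had reads in model rats alone, 417 in controls alone and 148 in both groups. A single read can fall in only 1 group, and 530 members had 1 read, 238 in model rats and 292 in controls. Over all 8635 circRNAs with a read, 52.3% had 1 read. The split by group was not counted over all circRNAs, so these counts are not a result about the class.

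Among the 38 members with at least 10 reads, model and control libraries did not overlap for 6, with 5 lower and 1 higher in model rats. Over all 561 circRNAs of that depth, 5.88% were separate with model rats lower and 6.24% with model rats higher. The 5 were Yme1l1, Trip12, Nup133, Ift20 and Dop1b. Trip12, for a ubiquitin ligase, gave circRNA2237 (2 exons, chromosome 9, 85936864 to 85939279, introns of 724 and 893 bp) with 0, 0 and 2 reads in model rats and 3, 7 and 5 in controls. Its log2 fold was -2.61 ± 1.29 (SE, edgeR adjusted p = 0.690). This was the 1 member marked as changed in the authors' deposited table, which gives a log2 fold of -2.98 with p = 0.0295 and q = 1; that table marks 0.255% of detected circRNAs as lower and 0.151% as higher.

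Nup133, for a scaffold nucleoporin of the nuclear pore, gave circRNA778 (2 exons, chromosome 19) with 3, 0 and 2 reads in model rats and 5, 4 and 4 in controls. Ift20, for a component of intraflagellar transport in cilia, gave circRNA319 (2 exons, 486 bp, chromosome 10) with 4, 1 and 2 reads in model rats and 5, 5 and 5 in controls. Dop1b gave circRNA186 (2 exons, 356 bp, chromosome 11) with 2, 2 and 2 reads in model rats and 5, 4 and 3 in controls. In each of the 3, the highest model library was 1 read below the lowest control. The single higher one was from Atr, for a kinase of the DNA damage response (circRNA3806, 4 exons, chromosome 8), with 2, 6 and 3 reads in model rats and 0, 2 and 2 in controls. Model rat 1 and controls 2 and 3 each had 2 reads, and their levels were separate through library depth. None of these 4 passed the edgeR test (adjusted p = 0.980 each).

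Subsets of the class, chosen after the values were seen, gave mixed values. Members with a span under 1 kb, 141 of the 901, made up 1.33 ± 0.0691% of junction reads in model rats and 1.52 ± 0.0128% in controls (SD, n = 3). The 15 members seen in all 6 libraries made up 1.59 ± 0.136% in model rats and 2.12 ± 0.141% in controls. Every model library was below every control library in these subsets. Other subsets overlapped: members with a span of 10 kb or more made up 1.67 ± 0.276% in model rats and 1.97 ± 0.379% in controls, and single-read members 1.44 ± 0.284% in model rats and 1.54 ± 0.171% in controls. Members whose shorter intron was under 200 bp were slightly higher in model rats, at 0.618 ± 0.147% in model rats and 0.563 ± 0.0887% in controls, within the spread. No test was made of any subset.

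The intron limit of 3000 bp cut through a continuous range. Nearest below it, among circRNAs with at least 6 reads, were Mtif2 circRNA2855 (longer intron 2940 bp, from the mitochondrial translation initiation factor gene) and Hdac2 circRNA910 (2875 bp). Mtif2 had 2, 1 and 2 reads in model rats and 0, 2 and 0 in controls. Nearest above it were Nf1 circRNA326 (3035 bp) and Pdpr circRNA769 (3043 bp). Nf1, the neurofibromin gene, had 2, 0 and 2 reads in model rats and 1, 4 and 5 in controls. Pdpr, for a regulator of pyruvate dehydrogenase phosphatase, had 2, 3 and 4 in model rats and 3, 3 and 1 in controls.

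Hosts with many short-intron circles had low counts of each. Sec24a, for a cargo adaptor of COPII vesicles, gave the most, 8 circRNAs with 5, 2 and 2 reads in model rats and 1, 0 and 2 in controls. Usp9x, for a deubiquitinase on the X chromosome, gave 7, and circRNA936 and circRNA937 shared their downstream end (9630483, minus strand) and differed at the other. Reads of the 7 summed to 2, 4 and 2 in model rats and 5, 6 and 2 in controls. Herc1, for a giant ubiquitin ligase, gave 5 with 0, 4 and 2 reads in model rats and 1, 6 and 4 in controls. Model rats had more reads for Sec24a and fewer for Usp9x and Herc1.

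Ddhd2 and Dmxl2 gave 4 each. For Ddhd2 they summed to 9, 3 and 4 reads in model rats and 6, 9 and 2 in controls. For Dmxl2, a regulator of the vacuolar proton pump, they summed to 0, 2 and 6 in model rats and 2, 0 and 1 in controls. Nup133, Ubn2 and Npepps gave 3 each. All reads of Nup133 were in short-intron circles, 5, 2 and 2 in model rats and 5, 5 and 5 in controls. Ubn2, for a histone chaperone subunit, had 5, 0 and 5 in model rats and 2, 6 and 3 in controls. Npepps, for an aminopeptidase, had 0, 3 and 0 in model rats and 3, 7 and 3 in controls.

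Junction reads summed over all circles of a host gene were also tested, for 107 hosts, of which 24 gave a short-intron circRNA. Erbin, a scaffold protein gene, was the 1 of the 24 that passed, lower in model rats, where 1.87% of tested hosts were called lower and 0% higher. Without adjustment it was again the 1 of the 24 with p under 0.05, lower, against 2.8% of tested hosts lower and 0% higher. It had 15, 10 and 8 reads in model rats and 36, 64 and 33 in controls, with a log2 fold of -1.73 ± 0.42 (SE, edgeR adjusted p = 0.0366). Its short-intron circRNA had 1 of the gene's 166 reads, so this result was not about the class. The call was lost without any library other than model rat 1, with folds from -1.97 to -1.37. Where short-intron circles made up the host's reads, hosts did not pass. Yme1l1 had a log2 fold of -0.74 ± 0.37 and Hdac2 of -0.48 ± 0.52 (SE, edgeR adjusted p = 0.779 and 0.803). Hnrnph1 was at -0.13 ± 0.42 and Hars2 at 0.02 ± 0.59 (SE, edgeR adjusted p = 0.911 and 0.985). With the 6-read filter, 254 member hosts were among 1117 tested, and Erbin was again the 1 that passed, where 0.269% were called lower and 0% higher. At an unadjusted p under 0.05, 12 of the 254 member hosts (4.72%) were lower and 1 higher, against 3.04% lower and 2.51% higher over all hosts tested. These sums cover all circles of a host, and over the 713 hosts short-intron circles held 35.0% of the reads. The counts are therefore not a result about the class.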

How the data were processed

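White matter RNA of 3 model and 3 control rats was digested with RNase R, reverse transcribed, amplified by PCR and read as 150 bp pairs, per the labels' protocols. The authors deposited raw counts of junction reads per circRNA and library, a normalised signal (SRPBM), log2 fold changes, p-values and q-values, per the file headers. The aligner, the circRNA caller, the use of strand and the test behind those p-values were not given in the sources used here. Per the submitters' processing notes the genome is mRatBN7.2, and coordinates are 1-based as the table lists them. SRPBM divides by a library total whose nature is not given, so it is read as relative. Exons and flanking intron intervals were taken from the same table.

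The quasi-likelihood test of edgeR 4.0.16, in R 4.3.3, was run on the counts of the whole table with TMM scaling, the default filter (filterByExpr, min.count 10, min.total.count 15) and Benjamini-Hochberg adjustment over all circRNAs tested, at 0.05. The 6-read and 10-read filters were run in the same way, and host genes were tested on summed counts. Members outside the default filter carry values of the 6-read fit. DESeq2 1.42.0, limma voom (limma 3.58.1), other scalings and filters, the replicate number as a block, and omission of each library were alternatives. The authors' divisors as library sizes were added after the data were seen. Fits were tested on simulated data. Thinning to 4750 reads used the mean of 20 seeded draws.

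Members and the 13 gene lists were chosen with earlier results of these data known. Named circRNAs were the 12 with most reads, those tested at the default filter, the 5 highest and 5 lowest folds at 6 reads, those with 10 reads and separate groups, hosts with 3 or more members, those marked by the authors, the nearest to the intron limit, and the leading list members. Circles with both introns under 100 bp, the shortest and longest circles and Erbin were named after their values were seen. The labels number biological samples within groups, so p-values measure the spread between these samples. No 2 libraries of the same group agreed within sampling noise. Of 713 hosts, 703 matched a name in a RefSeq table of GRCr8, used for names only. The oligodendrocyte marker check is not reported here.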

Additional observations from a re-analysis of the deposited data

How the results depend on the processing

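No short-intron circRNA passed edgeR's adjusted threshold under any scaling, filter, tool or left-out library that was run. The median log2 fold of the 4 members at the default filter was -0.33. With the authors' divisors it was -0.53 over 4 members (-0.22 over all circRNAs). With 1 library left out it was -0.30 to -0.11, over 4 to 7 members. With no filter it was -0.69 (-0.38 over all circRNAs), but over 901 members, of which 530 had a single read. The settings thus differed in the members they covered as well. The number of member hosts called was 0 to 1 with 1 library left out. The replicate numbers did not pair the libraries (correlations of same-numbered libraries -0.05, -0.02 and -0.03 over 561 circRNAs). With the number as a block, the median was -0.32, with 0 circRNAs and 1 host called.

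Signs of small folds turned. Hars2 was 0.072 with DESeq2 size factors, 0.10 in DESeq2 and -0.65 to 0.47 with 1 library left out. Ddhd2 was 0.064 with DESeq2 size factors, 0.0093 without TMM, 0.066 in DESeq2 and -1.10 to 0.48 with 1 left out. Pigo was -0.043 with the authors' divisors and -0.22 to 0.31 with 1 left out. Leaving out 1 library gave -1.07 to 5.97 for Brsk2, where the 5.97 was without control 2, which held all its control reads. It gave -0.42 to 1.72 for Magi3, -0.037 to 1.22 for Eprs and -1.97 to -1.37 for Erbin as a host. The cause was not tested. Of the 901 members, 836 had under 6 reads and gave no test at that filter.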
